A study of Mus musculus with 10 samples.

Results

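The 8 transcripts described here are the glucocorticoid receptor gene *Nr3c1* and 7 genes that the receptor is known to induce, *Fkbp5*, *Tsc22d3*, *Dusp1*, *Sgk1*, *Klf9*, *Ddit4* and *Txnip*. They were taken by symbol from the 10431 genes of the deposited blood table, and all 8 were found there. Blood RNA was sequenced from 10 female C57BL/6J mice, in cohorts of 5 named AIWG-P and AIWG-R, that is, the mice that gained the most and the least weight on the antipsychotic olanzapine. They were purchased at an age of 9 weeks, lived in single cages and received olanzapine compounded in a diet with 45% of its energy from fat for 14 days. The submitters' design text adds chow up to an age of 10 weeks and then 3 days on the fat diet without the drug, a step that the study's methods do not mention. The question put to these genes was whether the blood of the cohorts differed in the transcriptional response to stress hormone. The study's methods place the blood draw after acclimation, before the drug diet, while the treatment label of all 10 samples names the high-fat diet with olanzapine and the design text describes a collection at the start and another at the end, so the time of the draw rests on the methods. The cohorts were formed from the weight gained, neither blinding nor randomization was applied, and no untreated mice are part of the comparison. After their labels, the AIWG-P mice are called P1, P3, P5, P7, P8 and the AIWG-R mice R1, R2, R4, R8, R9. The labels hold a further number without an explanation, 4 in 7 mice and 3 in P7, P8 and R1. The time of day of the draw and the level of corticosterone were not analyzed here.

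Corticosterone, the main glucocorticoid of the mouse, is released from the adrenal gland under stress and with a daily rhythm. Without hormone the receptor is held in the cytoplasm by HSP90 with its cochaperones. With hormone it enters the nucleus, binds palindromic response elements and raises the transcription of its targets, and it restrains inflammatory genes, in part through proteins that these targets encode. In blood, glucocorticoids are known to move lymphocytes and eosinophils out of the circulation and to raise the number of neutrophils. In whole blood, fewer cells of a type and less RNA per cell cannot be told apart.

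Depth and composition set how far small differences can be read. The deposited values added up to 16909806 in the lowest mouse and 45642066 in the highest, the 4 globin genes found in the table took 75 to 87.5% of this sum, and the median gene lay between 142.9 and 145.7 in every mouse. Every value was a whole multiple of 1 step of its mouse, within 9.4e-06 of a step, with 23810098 to 32293924 steps in a mouse. Blood was recognizable by its markers: 9 of 14 neutrophil markers, 10 of 10 monocyte markers, 12 of 13 B cell markers, 14 of 14 T cell markers, 12 of 12 platelet markers and 15 of 15 red cell markers were in the table. *Ly6g*, *Ltf*, *Elane*, *Mpo* and *Camp* of the neutrophil list and *Prg2*, *Epx* and *Ear1* of the eosinophil list were not analyzed here. P8 stood apart from the other mice, with the lowest value of all mice in 28.5% of all genes and the highest in 27.1%. R9 had the lowest in 12.3% and the highest in 13.5%, and P3 the lowest in 12.1% and the highest in 8.37%. The remaining mice had the lowest value in 5.3 to 8.31% and the highest in 6.66 to 8.05%.

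RefSeq promoter windows on GRCm38.p6, from 250 bases before to 50 bases after each start site, were found for 7 of the 8 genes, 14 windows in all, and were searched on both strands for the receptor's palindrome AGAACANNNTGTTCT, its half-site AGAACA and the cyclic AMP response element TGACGTCA. The deposited values were made on another assembly, mm9, and no position of it was used. A window of *Sgk1* and the window of *Dusp1* are printed because each holds a full element. The palindrome was present in 1 of the 14 windows, that of *Sgk1* at chr10:21993640-21993939 on the plus strand, where it reads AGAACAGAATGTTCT from position -189 to -175. It occurred in 3 of 32851 windows of all mouse genes, 0.00913%. The same *Sgk1* window holds a separate half-site at position -242, and the half-site overlaps the palindrome at either end. The cyclic AMP response element was found in the single window of *Dusp1*, at chr17:26508423-26508722 on the minus strand, from position -143 to -136, and in 1.79% of all windows and 3.01% of the windows of genes in the blood table. Half-sites stood in 4 windows of 2 genes, *Sgk1* and *Tsc22d3*, and in 19.0% of all windows and 12.7% of those of genes in the blood table. None of the 3 motifs was in the windows of *Fkbp5*, *Ddit4*, *Klf9* and *Txnip*. Capitals mark these matches, which describe the letters and not binding.
Sgk1: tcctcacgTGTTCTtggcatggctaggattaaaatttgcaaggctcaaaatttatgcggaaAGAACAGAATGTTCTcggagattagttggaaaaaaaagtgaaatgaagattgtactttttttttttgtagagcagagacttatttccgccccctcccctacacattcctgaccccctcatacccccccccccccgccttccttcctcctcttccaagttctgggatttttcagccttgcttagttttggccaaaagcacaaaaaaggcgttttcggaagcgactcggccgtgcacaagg
Dusp1: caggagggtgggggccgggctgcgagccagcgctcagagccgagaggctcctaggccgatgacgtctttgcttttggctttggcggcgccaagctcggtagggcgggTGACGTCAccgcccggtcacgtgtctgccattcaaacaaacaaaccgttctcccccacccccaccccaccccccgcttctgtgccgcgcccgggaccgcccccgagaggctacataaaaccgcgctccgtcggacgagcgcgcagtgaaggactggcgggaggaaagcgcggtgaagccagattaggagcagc

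*Nr3c1* encodes the receptor itself. Its normalized value was 524.6 in P1, 745.2 in P3, 736.9 in P5, 653.3 in P7 and 419.5 in P8. In AIWG-R it was 598.7 in R1, 590.9 in R2, 734.1 in R4, 608.5 in R8 and 643.4 in R9. P8 and P1 were the lowest mice and P3 and P5 the highest, so the AIWG-P cohort spanned the whole AIWG-R range. The means were 615.9 ± 141.1 and 635.1 ± 58.84 (SD, n = 5 each), a log2 fold change of AIWG-P over AIWG-R of -0.07 (SE 0.14) with a fold of 0.951 and a 95% interval of 0.765 to 1.18 in limma, which was fitted over all genes on log2 of the value plus 1 (adjusted *p* = 0.839, exact permutation *p* = 0.722).

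*Fkbp5* encodes FKBP51, an HSP90 cochaperone that lowers the affinity of the receptor for hormone and is itself induced by the receptor, which closes a negative feedback loop. It read 162.0 in P1, 134.2 in P3, 153.2 in P5, 184.1 in P7 and 176.0 in P8. In AIWG-R it read 165.2 in R1, 137.7 in R2, 128.3 in R4, 219.1 in R8 and 156.8 in R9. R8 was the highest and R4 the lowest mouse, both in the AIWG-R cohort. The means of 161.9 ± 19.59 and 161.4 ± 35.45 (SD, n = 5 each) lay close together, with a log2 fold change of 0.02 (SE 0.14), a fold of 1.01 and an interval of 0.823 to 1.251 (limma, adjusted *p* = 0.958; exact permutation *p* = 0.905).

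*Tsc22d3* encodes GILZ, a leucine zipper protein that restrains NF-kB and AP-1 and mediates part of the anti-inflammatory action of glucocorticoids. Its value was 4178 in P1, 3258 in P3, 3146 in P5, 2885 in P7 and 3210 in P8. The AIWG-R mice gave 4330 in R1, 3219 in R2, 3195 in R4, 3830 in R8 and 1342 in R9. Apart from R9, every mouse was at 2885 or above, and the highest value, like the lowest, was in AIWG-R. The means were 3336 ± 492.7 and 3183 ± 1132 (SD, n = 5 each), with a log2 fold change of 0.16 (SE 0.25), a fold of 1.12 and an interval of 0.766 to 1.63 (limma, adjusted *p* = 0.792; exact permutation *p* = 0.841). Without R9 the log2 fold change was -0.127, so 1 mouse set its sign.

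*Dusp1* encodes a dual-specificity phosphatase that switches off p38 and JNK, and it is induced by glucocorticoids and, as an immediate-early gene, by cell stimulation. It read 1089 in P1, 763.7 in P3, 640.0 in P5, 554.3 in P7 and 524.7 in P8. In AIWG-R the values were 1222 in R1, 611.5 in R2, 694.0 in R4, 573.8 in R8 and 191.3 in R9. R1 and P1 were the highest mice for *Dusp1* as they were for *Tsc22d3*, and R9 was again the lowest. The means of 714.4 ± 229.1 and 658.5 ± 369.6 (SD, n = 5 each) gave a log2 fold change of 0.29 (SE 0.38), a fold of 1.22 and the widest interval of the 8 genes, 0.696 to 2.14 (limma, adjusted *p* = 0.746; exact permutation *p* = 0.659). Without R9 the log2 fold change was -0.101.

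*Sgk1* encodes a serine/threonine kinase that controls ion channels and is a classic target of both corticosteroid receptors. Its values were 218.8 in P1, 261.9 in P3, 261.8 in P5, 254.4 in P7 and 243.5 in P8. AIWG-R mice gave 248.9 in R1, 248.5 in R2, 243.2 in R4, 245.1 in R8 and 232.0 in R9. The highest mouse was only 1.2 times the lowest. The means were 248.1 ± 18.01 and 243.6 ± 6.875 (SD, n = 5 each), with a log2 fold change of 0.02 (SE 0.08), a fold of 1.02 and an interval of 0.906 to 1.14 (limma, adjusted *p* = 0.91; exact permutation *p* = 0.683).

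*Klf9* encodes a zinc finger transcription factor that glucocorticoids and thyroid hormone induce. It read 25.38 in P1, 25.09 in P3, 44.54 in P5, 32.66 in P7 and 14.14 in P8. In AIWG-R it read 21.46 in R1, 23.24 in R2, 26.73 in R4, 24.95 in R8 and 28.22 in R9. These values correspond to between 9 and 57 steps of the deposited scale per mouse, and P8 held the 9 and P5 the 57. The AIWG-P cohort held both the lowest and the highest mouse, with a mean of 28.36 ± 11.2 against 24.92 ± 2.69 (SD, n = 5 each). The log2 fold change was 0.10 (SE 0.25), the fold 1.07 and the interval 0.733 to 1.56 (limma, adjusted *p* = 0.883; exact permutation *p* = 0.73).

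*Ddit4* encodes REDD1, an inhibitor of mTORC1 that glucocorticoids, hypoxia and DNA damage induce. Its value was 264.7 in P1, 147.3 in P3, 210.2 in P5, 176.2 in P7 and 345.6 in P8. In AIWG-R it was 289.7 in R1, 166.3 in R2, 142.5 in R4, 337.3 in R8 and 141.7 in R9. P8 and R8, 1 mouse of each cohort, had the highest values, and R9 and R4 the lowest. The means of 228.8 ± 78.58 and 215.5 ± 91.56 (SD, n = 5 each) gave a log2 fold change of 0.12 (SE 0.28), a fold of 1.09 and an interval of 0.72 to 1.64 (limma, adjusted *p* = 0.863; exact permutation *p* = 0.706).

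*Txnip* encodes thioredoxin-interacting protein, which inhibits thioredoxin and limits glucose uptake and answers to glucose as well as to glucocorticoids. It read 4529 in P1, 4077 in P3, 4600 in P5, 4553 in P7 and 3777 in P8. In AIWG-R it read 4029 in R1, 3800 in R2, 3984 in R4, 4701 in R8 and 3771 in R9. P1, P5, P7 and R8 formed the upper end of the range and P8, R2 and R9 the lower. The means were 4307 ± 363.9 and 4057 ± 377.1 (SD, n = 5 each), with a log2 fold change of 0.09 (SE 0.09), a fold of 1.06 and an interval of 0.925 to 1.22 (limma, adjusted *p* = 0.686; exact permutation *p* = 0.357).

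**Figure D1:**
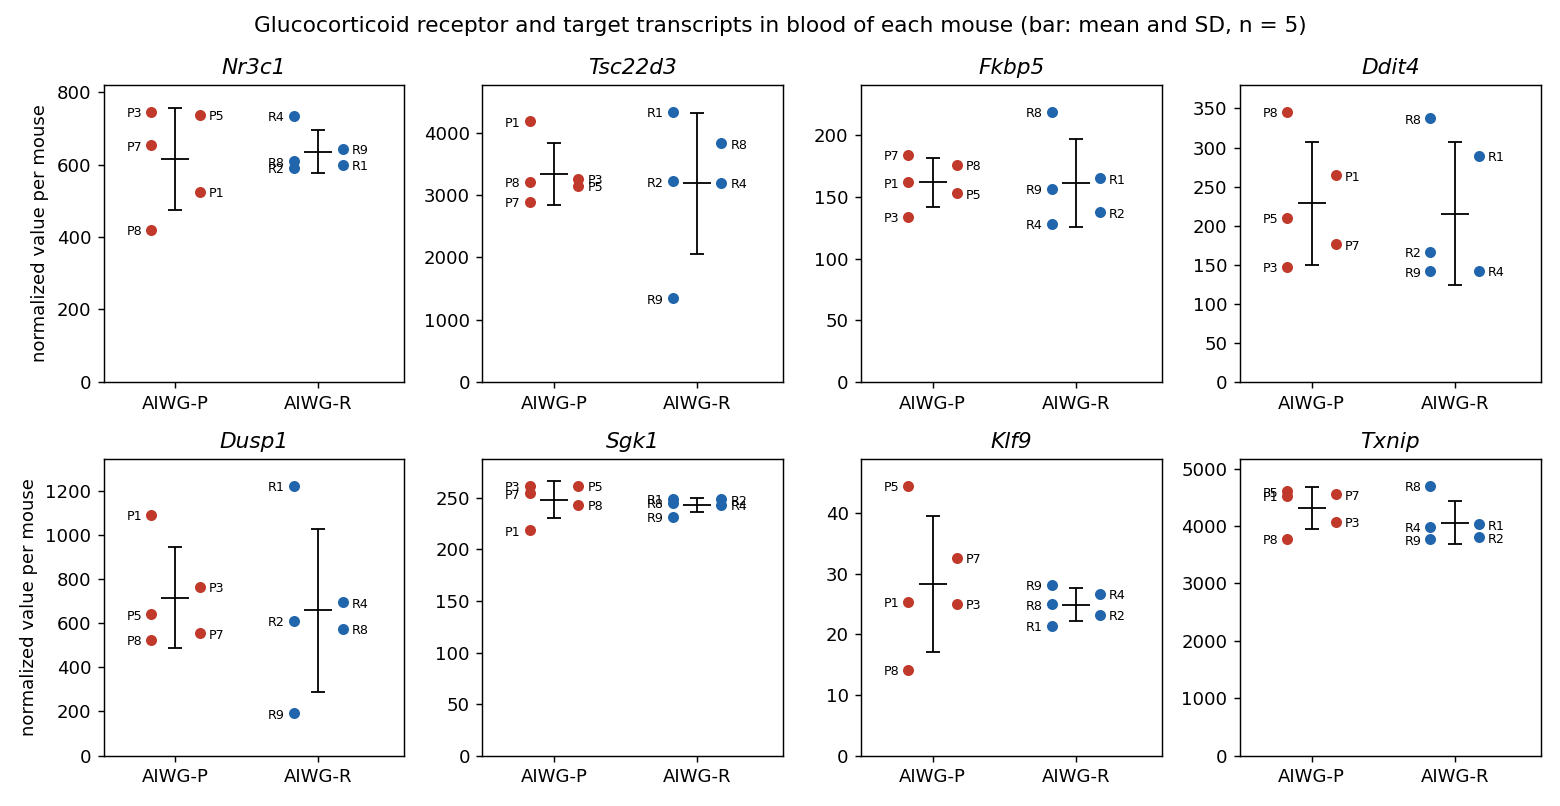
Normalized value (vertical axis, from 0, a scale of its own for each gene) of the receptor gene and its 7 targets in each mouse, with AIWG-P in red and AIWG-R in blue; each point is 1 mouse, and the bar gives the mean and SD of 5 mice. The cohorts overlap in every panel, and R9 lies below the other mice for *Tsc22d3* at 1342 and for *Dusp1* at 191.3.

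Calls required an unadjusted limma *p* under 0.05 together with a log2 fold change beyond 0.32 in size, the study's fold threshold for higher genes on the log2 scale, here applied in both directions. None of the 8 genes met this, 0 higher and 0 lower in AIWG-P, where 4.06% of the 10429 genes tested were called higher, 3.23% lower and 7.29% either way. None of the 8 reached an unadjusted *p* of 0.05 in limma or in the exact permutation test, whose smallest *p* among them was 0.357, against 12.8% of all genes in limma. After Benjamini-Hochberg adjustment 0 of the 10429 genes had a limma *p* under 0.05. The cohorts overlapped for all 8 genes, while they did not overlap in 1.11% of all genes with AIWG-P higher and in 1.44% with AIWG-P lower. The log2 fold change was above 0 for 7 of the 8, with a median of 0.09 beside -0.007 for all genes, but *Txnip* was below 0 under quantile normalization, and *Fkbp5*, *Ddit4*, *Sgk1*, *Klf9* and *Txnip* were below 0 under scaling to equal sums without globins, which moved the median of all genes by -0.143. For *Sgk1* and *Txnip* the 95% interval lay inside this threshold on both sides, whereas for *Tsc22d3*, *Ddit4*, *Dusp1* and *Klf9* it reached past it on both sides.

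**Figure D2:**
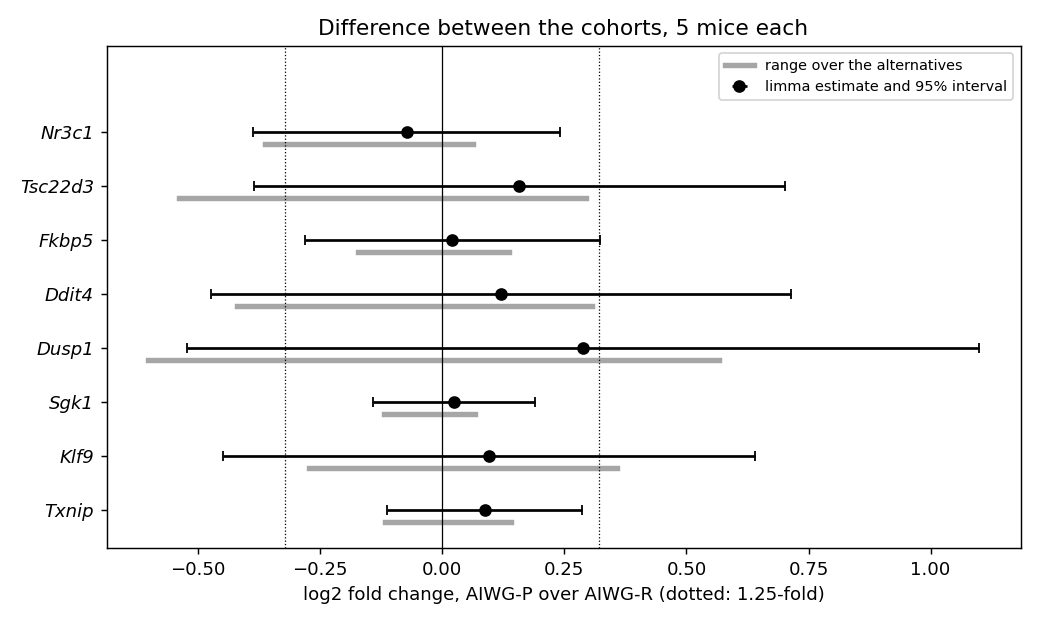
Log2 fold change of AIWG-P over AIWG-R (horizontal axis) for the 8 genes; black points and lines give the limma estimate with its 95% interval, grey lines the range over other ways of processing the values, and dotted lines the fold threshold at 0.32 on either side. All 8 intervals include 0, and the grey range of each gene crosses 0.

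The 8 genes differed widely in how much they varied among mice, whichever cohort the mice belonged to. *Dusp1* varied most, with a highest mouse at 6.39 times the lowest and a standard deviation on the log2 scale at percentile 98.7 of all genes. Its lowest value, 191.3, was that of R9, and the other mice had 524.7 or more. For *Tsc22d3* R9 also set the lower end, with 1342 where the other mice had at least 2885. The percentiles made no allowance for expression level and were not recomputed without R9. *Ddit4* was at percentile 95 with 2.44 times, *Tsc22d3* at 92.9 with 3.23 times and *Klf9* at 88.2 with 3.15 times. *Nr3c1* at percentile 60.6 and *Fkbp5* at 53.3 were near the middle of all genes. *Txnip* at percentile 13.9 and *Sgk1* at 1.92 were among the steadier transcripts of blood. R9 was the lowest mouse for *Txnip* too, at 3771, and had 232.0 for *Sgk1*, where only P1 was lower at 218.8. The causes of these spreads were not tested.

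R9 lay at the low end for several targets. It was the lowest of the 10 mice for 4 of the 8 genes, *Tsc22d3*, *Dusp1*, *Ddit4* and *Txnip*, and the highest for 0. Averaged over the 8 genes, its log2 value was -0.49 relative to the mean of the other mice. The same mouse was at -0.71 for the immediate-early genes and at -1.31 for the red cell markers. It was at -0.39 for the neutrophil markers and at -0.38 for the monocyte markers. For the neutrophil list its mean log2 level of 8.864 was close to 8.889 in R4 and 8.908 in R8, while R1 had 9.771. R9 was the lowest mouse in 2 of 9 neutrophil markers. Its T cell markers were at 0.06, its B cell markers at -0.015, its NK cell markers at -0.058 and its platelet markers at -0.181. Eosinophil markers went the other way, at 0.37, and R9 was the highest mouse for that list. Its mean log2 level there was 7.191, close to 7.156 in P1, which was high for *Tsc22d3* and *Dusp1*. Of the 4 measured eosinophil markers, R9 was highest in 2 and lowest in 1. R9 had the lowest value in 14 of 15 red cell markers, 6 of 10 monocyte markers, 8 of 15 immediate-early genes and 11 of 28 other glucocorticoid-induced genes. P8 was lowest for *Nr3c1* and *Klf9* and highest for *Ddit4*, and it was the highest mouse in 10 of 14 T cell markers and 9 of 12 platelet markers. The part of cell composition in these deviations was not tested.

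**Figure D3:**
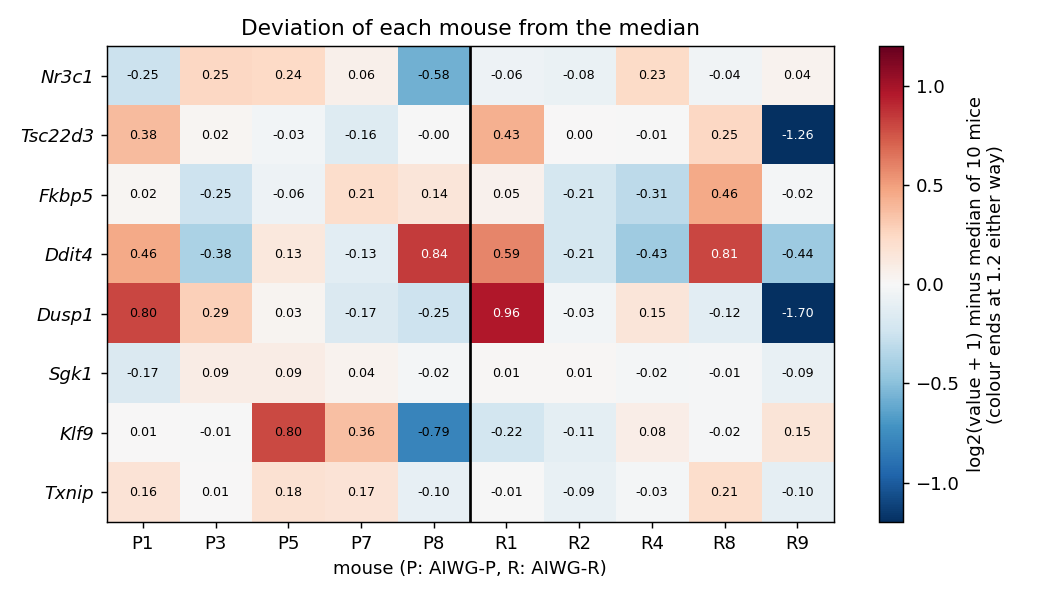
Deviation of each mouse (columns, AIWG-P left of the line, AIWG-R right of it) from the median of the 10 mice for the 8 genes (rows), in log2 units of the value plus 1; red is above and blue below the median, and colour ends at 1.2. R9 is lowest for *Tsc22d3* and *Dusp1*, P8 for *Nr3c1* and *Klf9*, and the *Sgk1* row is nearly without colour.

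Over the 10 mice, *Tsc22d3* and *Dusp1* moved together. Pearson's r was 0.936 (permutation *p* = 0.00139, 0.0389 after adjustment over the 28 pairs of the 8 genes) and Spearman's rho was 0.721 (permutation *p* = 0.0231, adjusted 0.309). Without R1 and R9, the mice farthest from the median of *Tsc22d3*, r was 0.647. It was 0.791 without R9 alone, 0.945 in the 7 mice of label number 4 and 0.935 after each cohort's mean was subtracted. The 3 mice of label number 3 are too few for a value of their own. This was the only one of the 28 pairs with an adjusted *p* under 0.05 for r, and 0 pairs reached it for rho.

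The other pairs held less firmly. *Fkbp5* and *Ddit4* had an r of 0.727 and a rho of 0.721 (permutation *p* = 0.0166 and 0.0227, adjusted 0.127 and 0.309), with r of 0.549 without R4 and R8 and of 0.861 in the 7 mice of label number 4. *Nr3c1* and *Klf9* had an r of 0.772 and a rho of 0.661 (permutation *p* = 0.0139 and 0.0442, adjusted 0.127 and 0.309), with r of 0.551 without P1 and P8 and of 0.475 in the 7 mice. *Nr3c1* and *Ddit4* went in opposite directions, with an r of -0.7 and a rho of -0.588 (permutation *p* = 0.0181 and 0.0798, adjusted 0.127 and 0.399), and r of -0.505 without P1 and P8 and of -0.545 in the 7 mice. For *Tsc22d3* and *Ddit4* r was 0.571 and rho 0.539 (permutation *p* = 0.0465 and 0.114, adjusted 0.26 and 0.399), with r of 0.529 without R1 and R9 and 0.578 in the 7 mice. *Tsc22d3* and *Klf9* were under 0.05 by rho only, with an r of -0.212 and a rho of -0.661 (permutation *p* = 0.43 and 0.0437, adjusted 0.752 and 0.309).

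The 8 genes were also set beside the mean log2 level of 8 lists of cell type markers, 64 relations in all. Of these, 0 had an adjusted *p* under 0.05. An unadjusted permutation *p* under 0.05 was found for 8 by r and for 5 by rho. Red cell markers and *Tsc22d3* had an r of 0.792 and a rho of 0.515 (permutation *p* = 0.0287 and 0.132, adjusted 0.361 and 0.553), but r was -0.068 without P1 and R9, 0.222 without R9 alone and 0.89 in the 7 mice of label number 4, so the relation rests on those mice. The same held for red cell markers and *Dusp1*, with an r of 0.7 and a rho of 0.297 (permutation *p* = 0.0448 and 0.403, adjusted 0.361 and 0.687), and r of -0.262 without P1 and R9 and 0.893 in the 7 mice. Platelet markers went with *Ddit4* at an r of 0.708 and a rho of 0.83 (permutation *p* = 0.00682 and 0.00455, adjusted 0.257 and 0.146), and r was 0.777 without P3 and P8 and 0.647 in the 7 mice. Platelet markers and *Fkbp5* had an r of 0.654 and a rho of 0.867 (permutation *p* = 0.0422 and 0.00221, adjusted 0.361 and 0.141), with r of 0.794 without P3 and P8 and 0.599 in the 7 mice. T cell markers and *Nr3c1* had an r of -0.799 and a rho of -0.552 (permutation *p* = 0.00803 and 0.105, adjusted 0.257 and 0.553), which fell in size to -0.319 without P3 and P8 and was -0.641 in the 7 mice. Platelet markers also went against *Nr3c1*, with an r of -0.682 and a rho of -0.491 (permutation *p* = 0.0451 and 0.156, adjusted 0.361 and 0.553), and r of -0.37 without P3 and P8 and -0.559 in the 7 mice. NK cell markers and *Fkbp5* had an r of 0.722 and a rho of 0.648 (permutation *p* = 0.0169 and 0.0479, adjusted 0.361 and 0.553), with r of 0.654 without P5 and R8 and 0.698 in the 7 mice. Neutrophil markers and *Dusp1* had an r of 0.655 and a rho of 0.552 (permutation *p* = 0.0299 and 0.105, adjusted 0.361 and 0.553), with r of 0.492 without P3 and R1 and 0.615 in the 7 mice. Relations of *Fkbp5* with B and T cell markers were under 0.05 by rho only. With B cell markers r was -0.625 and rho -0.794 (permutation *p* = 0.0551 and 0.00895, adjusted 0.389 and 0.191). With T cell markers r was 0.611 and rho 0.697 (permutation *p* = 0.0628 and 0.0306, adjusted 0.389 and 0.49).

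**Figure D4:**
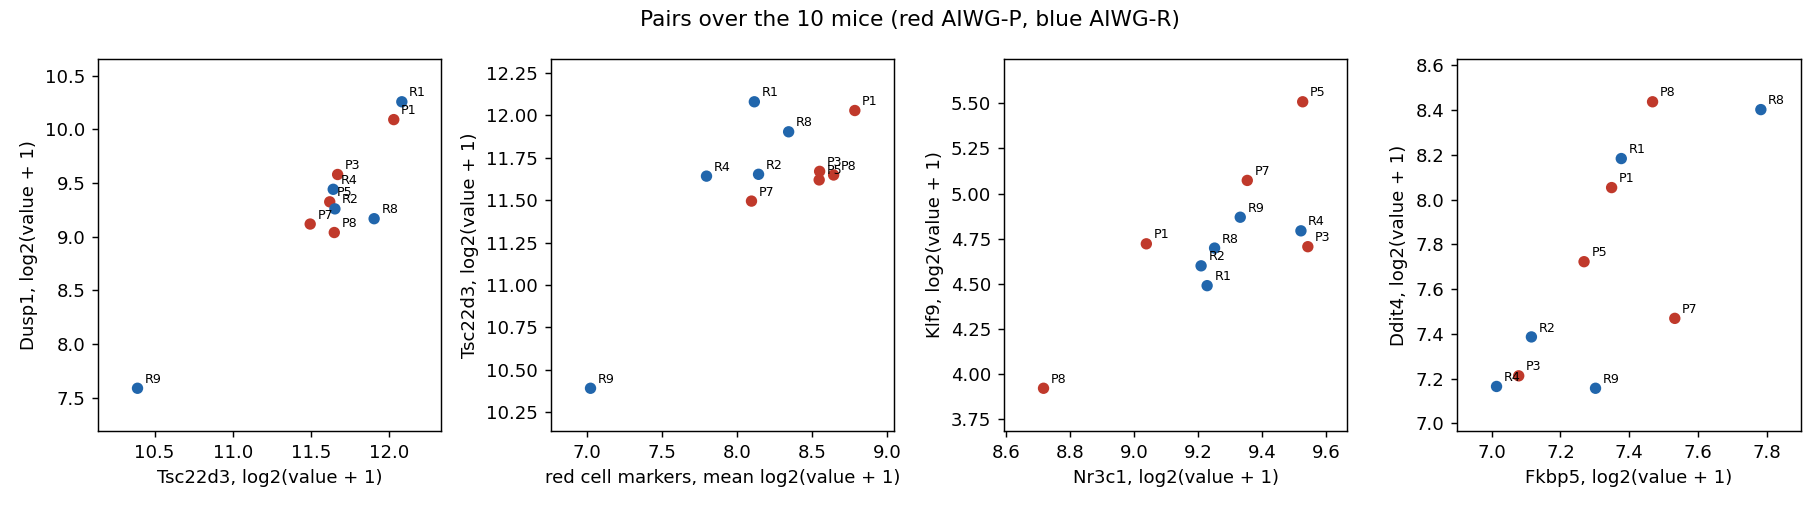
Log2 of the value plus 1 for 3 pairs of the 8 genes, and *Tsc22d3* against the mean log2 level of 15 red cell markers; each point is 1 mouse, AIWG-P in red and AIWG-R in blue. R9 lies far from the other mice in the *Tsc22d3* panels, and r for *Tsc22d3* with *Dusp1* is 0.936 with it and 0.791 without it.

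Many red cell markers were called higher in AIWG-P. Of the 15 markers, 12 passed both thresholds with higher values in AIWG-P, where 4.06% of all genes did, and 0 with lower values. Their adjusted *p* in limma was 0.325 or more, and R9 was the lowest mouse in 14 of the 15. The summed level of these markers ran from 41110 to 68440 in AIWG-P and from 27350 to 56750 in AIWG-R, and none was at 0. With the mean log2 level of these markers as a covariate, *Tsc22d3* became the 1 of the 8 genes past both thresholds, lower in AIWG-P with a log2 fold change of -0.54 (SE 0.16, unadjusted *p* = 0.00541 and adjusted *p* = 0.935 in limma, where the adjusted *p* ran from 0.634 to 0.974 over all alternatives), while *Dusp1* was at -0.60 (SE 0.34, unadjusted *p* = 0.102) and *Ddit4* at -0.42 (SE 0.30, unadjusted *p* = 0.183). Without R9, r with the red cell markers was 0.222 for *Tsc22d3*, 0.094 for *Dusp1* and 0.458 for *Ddit4*. With R9 these were 0.792, 0.7 and 0.56. The covariate fit was not repeated without R9, so how far it rests on this mouse was not tested. Neutrophil markers summed to between 10770 and 15400 in AIWG-P and between 9033 and 19730 in AIWG-R, and 1 of 9 was called higher, with 5 called without R1, 3 without P5 and 0 without P8 or without R9. With the neutrophil markers as a covariate *Tsc22d3* was at -0.034 and *Dusp1* at -0.120. None of the 10 monocyte, 4 eosinophil, 12 B cell, 14 T cell and 12 platelet markers measured was called, and 1 of 10 NK cell markers was called lower, which was 0 without R8.

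For each of the 8 genes, the 3 genes with the highest r over the 10 mice were listed, as a description without a test. *Tsc22d3* was followed by *Cxcr4*, a chemokine receptor of leukocytes (r = 0.974), *Cd69*, an early activation receptor of lymphocytes (0.956), and *Dusp1* (0.936). *Dusp1* was followed by *Fos*, an AP-1 subunit (0.965), the cytokine *Il1b* (0.953) and *Tsc22d3* (0.936). R9 was the lowest mouse for each of these partners: it had 481.6 for *Cxcr4* where the other mice had at least 936.4, 248.3 against 397.9 for *Cd69*, 38.25 against 237.2 for *Fos* and 351.8 against 787.5 for *Il1b*. The genes likest *Nr3c1* were *Mtmr6* (0.974), *Fam102b* (0.971) and *Sesn3* (0.969), and 227 genes had an r above 0.9 with it, against 7 for *Tsc22d3*, 8 for *Dusp1*, 6 for *Ddit4*, 9 for *Klf9* and 3 for *Fkbp5*. P8 was the lowest mouse for *Mtmr6* at 230.9, for *Fam102b* at 98.98 and for *Sesn3* at 69.13. *Fkbp5* was likest *Fam45a* (0.911), *Serpinb2* (0.908) and *Tspan2* (0.9), and *Ddit4* was likest *Max*, the partner of MYC (0.952), *Gmpr* (0.952) and *Atn1* (0.936). *Klf9* was likest *Rad23b* (0.962), *Pola1* (0.958) and *Slc39a9* (0.951). No gene reached 0.9 with *Sgk1*, led by *Lilra5* (0.898), or with *Txnip*, led by *Ccna2*, which encodes cyclin A2 (0.884).

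Among the chaperones and hormone-handling genes around the receptor, 2 of 14 measured passed both thresholds, both higher in AIWG-P, where 4.06% of all genes did. *Bag1*, a cochaperone of HSP70 that also binds the receptor, had 1211 ± 275.8 in AIWG-P and 863.0 ± 172.4 in AIWG-R (SD, n = 5 each), a log2 fold change of 0.48 (SE 0.16; limma adjusted *p* = 0.327, exact permutation *p* = 0.0317). *Hspa8*, the constitutive HSP70, had 5349 ± 1174 and 4027 ± 426.9, a log2 fold change of 0.39 (SE 0.14; limma adjusted *p* = 0.341, exact permutation *p* = 0.00794, the smallest that 5 against 5 mice can give). The lowest AIWG-P mouse had 4309 for *Hspa8* and the highest AIWG-R mouse 4283. *Hsp90aa1*, the inducible HSP90, had 989.7 ± 107.2 and 841.1 ± 25.48, a log2 fold change of 0.23 under the fold threshold, and 7 of the 14 had an unadjusted *p* under 0.05, where 12.8% of all genes did. The median of the list was 0.18, beside -0.007 for all genes. P8 was the highest mouse in 8 of the 14 and R9 the lowest in 6. The median and the count of 7 were not recomputed without these mice. Without P8 *Hspa8* was at 0.272 and without R9 at 0.319 and was not called in either, which left *Bag1* as the single call, and with both left out or with the red cell markers as a covariate 0 of the 14 were called.

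The coregulators that the receptor recruits lay on the other side of 0, with a median of -0.18. Of the 12, 1 was above 0, where 5047 of the 10429 genes tested were. Called lower was 1 of 12, where 3.23% of all genes were called lower. *Med1*, the Mediator subunit that binds nuclear receptors, had 337.5 ± 82.02 in AIWG-P and 438.1 ± 21.34 in AIWG-R (SD, n = 5 each), a log2 fold change of -0.41 (SE 0.14; limma adjusted *p* = 0.341, exact permutation *p* = 0.0397). The next by *p* were the p160 coactivators *Ncoa1* at -0.27 and *Ncoa3* at -0.21, neither past the thresholds. P8 was the lowest mouse in 9 of the 12, and without it *Med1* was at -0.277 and 0 of the 12 were called, while without P5 or without R8 there were 2. The mean log2 level of the list was 8.437 in P8 and 8.798 in P7, the next lowest mouse. The median and the count above 0 were not recomputed without P8.

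Of 28 other genes known to be induced by glucocorticoids, 2 were called higher, 0 lower and 26 were not called, with a median of 0.03. This share is near the background of 4.06% called higher and 7.29% called either way among all genes, and the 2 genes are given as single values. *Anxa1*, which encodes the anti-inflammatory annexin A1, had 513.2 ± 62.89 in AIWG-P and 383.7 ± 68.34 in AIWG-R (SD, n = 5 each), a log2 fold change of 0.43 (SE 0.12; limma adjusted *p* = 0.325, exact permutation *p* = 0.0238). *Gadd45a*, a growth arrest gene that DNA damage also induces, had 402.3 ± 89.44 and 279.1 ± 74.45, a log2 fold change of 0.54 (SE 0.20; limma adjusted *p* = 0.343, exact permutation *p* = 0.0556). *Anxa1* kept its call with each mouse left out in turn and with P8 and R9 left out together, and *Gadd45a* kept it with each mouse left out but not without both. Each of these genes kept its call in 20 of 24 alternatives. Neither was called with red cell or with neutrophil markers as a covariate, and with the red cell markers 0 of the 28 were called higher and 3 lower. With equal sums without globins *Anxa1* was not called. Without R1 the count of higher genes was 4. *Cebpd*, the transcription factor next in order of *p*, was at 0.49 with an unadjusted limma *p* of 0.0764.

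Of 6 measured inflammatory genes that glucocorticoids repress, 0 were called in limma and 0 had an unadjusted *p* under 0.05, and *Il1b* had the largest log2 fold change, 0.46. Of 15 immediate-early genes, 14 were above 0, where 5047 of the 10429 genes tested were. R9 was the lowest mouse in 8 of the 15 and lay at -0.71 for the list, and the count above 0 was not repeated without it. Called higher was 1 of the 15, near the background of 4.06% of all genes. It was *Jund*, an AP-1 subunit, with 2003 ± 176.0 in AIWG-P and 1555 ± 348.6 in AIWG-R (SD, n = 5 each) and a log2 fold change of 0.39 (SE 0.14; limma adjusted *p* = 0.343, exact permutation *p* = 0.0317). *Jund* was not called with red cell markers (0.111) or neutrophil markers (0.347) as a covariate or with equal sums without globins (0.248). Without R9 *Jund* was at 0.263 and 0 of the 15 were called higher, while the count was 4 without R1, 3 without R2 and 2 without P3, P7, P8 or R4. *Ier2* at 0.30 and *Egr1* at -0.33 were next by *p* and were not called.

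The clock genes bear on the time of day at which blood was taken, but no time was read from them or from their median. Of 13 measured, 1 was called lower, near the background of 3.23% of all genes, and their median was -0.13. *Clock* itself had 99.64 ± 37.35 in AIWG-P and 133.1 ± 12.78 in AIWG-R (SD, n = 5 each), a log2 fold change of -0.50 (SE 0.23; limma adjusted *p* = 0.387, exact permutation *p* = 0.111), and it kept this call in 9 of 24 alternatives. Leaving out P3 or P5 kept the call, and leaving out any of the other 8 mice ended it, with log2 fold changes of -0.537 to -0.271. *Per1*, which the receptor induces directly, had 195.2 ± 30.3 and 226.5 ± 26.71, a log2 fold change of -0.22, and *Per3* was at -0.47, neither past the thresholds. The 3 clock genes above 0 were *Bhlhe41* at 0.38, *Dbp* at 0.20 and *Arntl* at 0.17, none of them called. None of the 16 measured relatives of the 8 genes by sequence family passed both thresholds in limma. An unadjusted limma *p* under 0.05 was found for 2 of the 16, near the background of 12.8% of all genes, and these 2 are given as single values. *Klf10*, a relative of *Klf9*, had 156.8 ± 15.71 and 130.1 ± 8.738, a log2 fold change of 0.27 under the fold threshold, and *Fkbp4*, the cochaperone that acts opposite to the product of *Fkbp5*, had 355.0 ± 54.09 and 297.3 ± 22.46, a log2 fold change of 0.25.

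**Figure D5:**
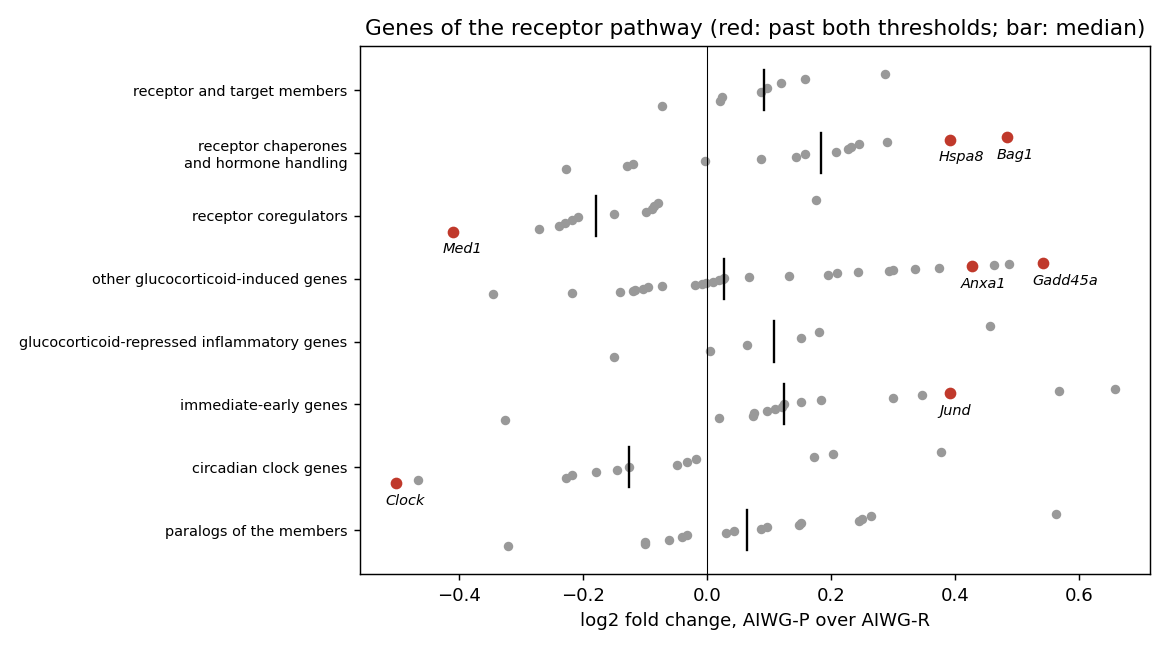
Log2 fold change of AIWG-P over AIWG-R (horizontal axis) for every measured gene of 8 lists (rows); each point is 1 gene, named and red where it passed both thresholds, and the black bar is the list's median. No gene of the top row is red, and the medians run from -0.18 for the coregulators to 0.18 for the chaperones.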

How the data were processed

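Per the labels, total RNA of blood was sequenced with TruSeq libraries. The authors mapped reads with Bowtie2 and estimated gene levels with RSEM, and the submitters' processing notes also name limma and the mm9 build; no versions are stated. The table gives 1 deposited signal value per gene and mouse, normalized by the authors in an unstated way. It also holds the authors' cohort means, used only as a check of the columns, and their own fold change, *p* and *q* columns, which were not used. Per-sample columns not used numbered 0.

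The fit used limma 3.58.1 (R 4.3.3, mean-variance trend, no covariate) on log2-transformed values (pseudocount 1); it kept the 10429 of 10431 genes that exceeded 1 in 5 or more mice, with Benjamini-Hochberg adjustment over all genes tested. The methods name limma, and the thresholds follow the study's for genes higher in AIWG-P. For single genes an exact permutation test, two-sided, ran over the 252 divisions into 5 and 5 mice, with a smallest *p* of 0.00794. Correlations used log2 values and two-sided permutation tests of 100000 resamples. The sample labels number the mice, 1 sample each. The fit was tested on simulated data. Symbols were matched by Entrez ID to RefSeq (10368 matched) with Python 3.11.15, numpy 2.4.6, scipy 1.17.1 and pandas 2.3.3.

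Besides the 8 genes, the text names for each of them the 3 genes with the highest r, and in each pathway list the genes past both thresholds and some of the 3 with the smallest *p*. Of the clock genes it also names those above 0. The genes, lists and tests were chosen with earlier results of these data known. Alternatives covered scaling, pseudocount, filter, trend, leaving out mice, covariates, a replicate block and thresholds. Leaving out R9 alone from the correlations was chosen after seeing the data.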

Additional observations from a re-analysis of the deposited data

Results flagged for a closer look

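Each of the 8 genes was examined in each cohort for 1 mouse lying apart from the other 4, 16 groups in all, of which 2 were flagged; chance flags about 1 in 20 groups. *Tsc22d3* in P1 was 4178, and the next AIWG-P mouse had 3258, a gap of 0.712 of the cohort's range where 0.71 is the critical value. *Txnip* in R8 was 4701, and the next AIWG-R mouse had 4029, a gap of 0.723 of the range.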

How the results depend on the processing

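The log2 fold changes of the 8 genes were recomputed in 191 alternatives, 24 for each gene and 23 for *Klf9*, whose mean lay under the stricter filter of 50. In 152 of these the direction and the call were as in the report, in 38 the sign changed, and in 0 was the limma adjusted *p* under 0.05. The count of genes called higher was 0 in every alternative run. The count called lower was 1 with the red cell markers as a covariate (*Tsc22d3* at -0.538) and 1 in the replicate block fit (*Nr3c1* at -0.363, unadjusted *p* = 0.0399 and adjusted *p* = 0.261 in limma, beside adjusted *p* from 0.261 to 0.988 over its alternatives), and 0 otherwise.

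Scaling to equal sums without globins moved the median of all genes by -0.143 and gave -0.122 for *Fkbp5*, -0.023 for *Ddit4*, -0.120 for *Sgk1*, -0.041 for *Klf9* and -0.057 for *Txnip*, which relative to that shift are 0.021, 0.12, 0.023, 0.102 and 0.086. It also turned the calls over all genes from 423 higher and 337 lower to 162 and 1212. Quantile normalization gave -0.118 for *Txnip*. With the red cell markers as a covariate *Nr3c1* was at 0.050, *Fkbp5* at -0.046, *Ddit4* at -0.419 and *Dusp1* at -0.602. With the neutrophil markers *Tsc22d3* was at -0.034 and *Dusp1* at -0.120, with the T and B cell markers *Fkbp5* was at -0.003, and with the label number at -0.017. Without P8 and R9 together *Nr3c1* was at 0.063, *Tsc22d3* at -0.116, *Fkbp5* at -0.015, *Ddit4* at -0.170 and *Dusp1* at -0.003.

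Leaving out 1 mouse at a time gave log2 fold changes of -0.150 to 0.057 for *Nr3c1*, -0.127 to 0.295 for *Tsc22d3*, -0.055 to 0.137 for *Fkbp5*, -0.044 to 0.306 for *Ddit4*, -0.101 to 0.566 for *Dusp1*, 0.003 to 0.068 for *Sgk1*, -0.084 to 0.313 for *Klf9* and 0.062 to 0.141 for *Txnip*. The sign changed without P8 for *Nr3c1*, *Fkbp5* and *Ddit4*, without R9 for *Tsc22d3*, *Dusp1* and *Ddit4*, without R4 for *Fkbp5* and *Ddit4*, without P7 or R2 for *Fkbp5* and without P5 for *Klf9*. The correlation of red cell markers changed sign without P1 and R9, to -0.068 with *Tsc22d3* and -0.262 with *Dusp1*.

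Mouse numbers 1 and 8 occur in both cohorts. Same-numbered mice correlated at 0.122 (P1 and R1) and 0.332 (P8 and R8) in their deviations from the cohort means, against 0.064 and 0.083 for the other combinations. The number only names a mouse, and with 2 such numbers it was not read as a pairing. The replicate block fit, which uses these 4 mice only, gave -0.153 for *Tsc22d3*, -0.172 for *Fkbp5*, -0.047 for *Ddit4*, -0.147 for *Dusp1*, -0.097 for *Sgk1*, -0.272 for *Klf9* and -0.073 for *Txnip*, and it called 802 of all genes higher and 975 lower. All genes called numbered 265 higher and 242 lower without R9, 283 and 228 without P8, and 178 and 188 without both. Removing the fold threshold gave 702 higher and 638 lower and left the count of the 8 genes at 0. The causes of these changes were not tested. The planned count-based tests on recovered reads were not run. With 5 mice per cohort, the intervals of *Dusp1*, *Klf9*, *Ddit4* and *Tsc22d3* held differences past the fold threshold in both directions.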
